A study of Homo sapiens with 18 samples.

Results

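Levels of 9 genes for tumour cell surface proteins that lymphocytes, natural killer (NK) cells or phagocytes recognise were followed in a small cell lung cancer line in which the transcription factor POU2F3 had been targeted. The genes were CD274 (PD-L1), VTCN1 (B7-H4), CD276 (B7-H3), PVR (CD155), MICA, MICB, ULBP2, CD47 and NT5E (CD73), taken by name as a set of checkpoint and NK cell ligand genes, 9 of the 19746 named genes in the table. All 9 were found. Levels are in TPM, transcript abundance scaled to a total of 1000000 in each library. MICA and NT5E had a mean below 1 TPM over the 18 libraries, and the other 7 entered the tests.

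The cells were the established line NCI-H211, grown from a small cell lung cancer and of the tuft-like type marked by POU2F3, with Cas9 in every group, and their bulk RNA was sequenced. Cells stably expressed a POU2F3 cDNA with the L191A substitution that the guide does not cut (L191A), the same kind of cDNA with the wild-type sequence (WT), or an empty vector. Each of these lines was infected in triplicate with lentivirus for a guide against POU2F3 (sgPOU2F3) or for the control guide sgRosa, and RNA was collected on day 5. This gave 6 groups of 3 libraries: L191A sgPOU2F3, L191A sgRosa, WT sgPOU2F3, WT sgRosa, empty vector sgPOU2F3 and empty vector sgRosa. The lines were 1 per construct, so p-values measured the spread between infections and not between independently made lines. That spread was pooled over all 6 groups, so a p-value also depended on libraries outside its comparison. As the cells were measured in bulk, fewer cells making a transcript and less of it per cell cannot be told apart.

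CD274, VTCN1 and CD276 belong to the B7 family. CD274 engages PD-1 on T cells and restrains them, and VTCN1 is likewise an inhibitor of T cell responses. PVR, a nectin-like adhesion molecule, binds the activating receptor DNAM-1 and the inhibitory receptor TIGIT on T and NK cells. MICA, MICB and ULBP2 are stress-induced ligands of the activating NK receptor NKG2D. CD47 binds SIRPA on macrophages as a signal against engulfment, and NT5E is the ectoenzyme that makes adenosine, a suppressor of lymphocytes, from AMP. POU2F3-type tumours express tuft cell genes in place of the neuroendocrine genes of most small cell lung cancers.

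The promoters of CD274, VTCN1 and NT5E are shown because these 3 genes were higher under sgPOU2F3 in empty-vector and in L191A cells. Each runs from 250 bases before to 50 after the RefSeq start site (GRCh38.p14, 5′ to 3′ on the gene's strand), and all 9 genes had an entry. Capitals mark matches on either strand to AP-1 (TGANTCA), TEAD (GGAATG), the octamer (ATGCAAAT), NF-kB (GGGA, then any 4 bases, then CC) or the interferon-response core (GAAA repeated with any 2 bases between). The core part of the cyclic AMP element (TGACGT), the CCAAT box by those letters and the TATA box (searched as TATAAA) are not marked, and positions count from the start base as 0.
CD274, chr9:5450292-5450591, plus strand: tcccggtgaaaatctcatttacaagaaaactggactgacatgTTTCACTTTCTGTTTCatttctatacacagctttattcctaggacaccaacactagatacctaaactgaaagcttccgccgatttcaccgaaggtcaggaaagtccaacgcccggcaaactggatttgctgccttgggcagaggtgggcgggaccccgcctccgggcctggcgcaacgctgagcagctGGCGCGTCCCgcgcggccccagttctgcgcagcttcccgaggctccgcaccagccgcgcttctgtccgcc
VTCN1, chr1:117210878-117211177, minus strand: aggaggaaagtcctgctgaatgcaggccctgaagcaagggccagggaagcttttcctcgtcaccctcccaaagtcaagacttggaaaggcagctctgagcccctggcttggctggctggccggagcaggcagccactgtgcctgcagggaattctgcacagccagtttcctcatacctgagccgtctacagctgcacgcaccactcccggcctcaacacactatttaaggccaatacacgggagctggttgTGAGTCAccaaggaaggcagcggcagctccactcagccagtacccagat
NT5E, chr6:85449833-85450132, plus strand: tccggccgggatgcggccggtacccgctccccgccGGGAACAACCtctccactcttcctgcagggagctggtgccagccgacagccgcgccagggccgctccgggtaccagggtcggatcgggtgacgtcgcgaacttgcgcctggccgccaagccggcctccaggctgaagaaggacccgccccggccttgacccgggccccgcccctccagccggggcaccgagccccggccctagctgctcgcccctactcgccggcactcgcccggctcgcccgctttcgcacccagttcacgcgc
In CD274 the capitals held a pair of overlapping interferon-response matches, starting at -208 and -202 and read on the opposite strand, and 1 NF-kB match at -20. In VTCN1 they held 1 AP-1 match, which began 1 base after the start base, and an unmarked CCAAT box stood at -20. In NT5E they held 1 NF-kB match at -215, and the cyclic AMP element letters stood at -127. Of the other genes, ULBP2 had an AP-1 match at -2, PVR had 1 TEAD match at -182 and 3 NF-kB matches, and CD276, with a pair of start sites, had 3 NF-kB matches in all. The octamer that POU factors bind was in no window of the 9 genes. Of 35116 RefSeq promoters of this length, 7.71% held the AP-1 letters, 14.03% TEAD, 1.77% the octamer, 25.59% NF-kB, 3.57% the interferon-response letters, 7.98% the cyclic AMP element letters, 34.61% the CCAAT box and 11.53% the TATA box. These letters are a description of the windows and not evidence of binding.

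Read depth was unknown, since each deposited column had the same total, so no counting interval could be set. The targeted gene, POU2F3, which includes reads from the cDNA, averaged 646.1 ± 25.7 TPM in L191A sgPOU2F3 and 675.4 ± 475.1 in L191A sgRosa, 1154 ± 114.5 in WT sgPOU2F3 and 1792 ± 90.0 in WT sgRosa, and 281.5 ± 33.1 in empty vector sgPOU2F3 and 729.5 ± 107.9 in empty vector sgRosa (SD, n = 3 each). Of 8 tuft markers, 7 had a mean of at least 1 TPM, while of 5 neuroendocrine markers INSM1 alone did. The POU2F3 difference between guides was called in no line with all libraries and in all 3 lines without a skewed pair of libraries, described next. The median over the genes tested was 7.06 TPM in L191A sgRosa replicate 1 and 12.7 TPM in WT sgPOU2F3 replicate 1, against 18.6 to 26.4 TPM in the others. POU2F3 itself was at 142 TPM in that L191A sgRosa library, against 1053 and 831 TPM in the other libraries of its group. Counts of called genes among those tested are given for all 18 libraries and for the 16 without this pair. Values of single genes are from all 18 unless the 16 are named or the pair is said to be left out.

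Among the 9 genes the order by mean TPM over 18 libraries was PVR (160.6), CD47 (55.5), CD276 (30.4), ULBP2 (16.5), VTCN1 (5.46), CD274 (2.37), MICB (1.32), NT5E (0.66) and MICA (0.31). PVR had a higher mean than 95.3% of named genes and MICA than 25.5%. MICA had a mean below 1 TPM in each of the 6 groups. NT5E had one of at least 1 TPM in 2 groups, L191A sgPOU2F3 and empty vector sgPOU2F3, MICB and VTCN1 in 4 (MICB in 5 without the skewed pair), CD274 in 5, and the other 4 genes in all 6.

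**Figure D1:**
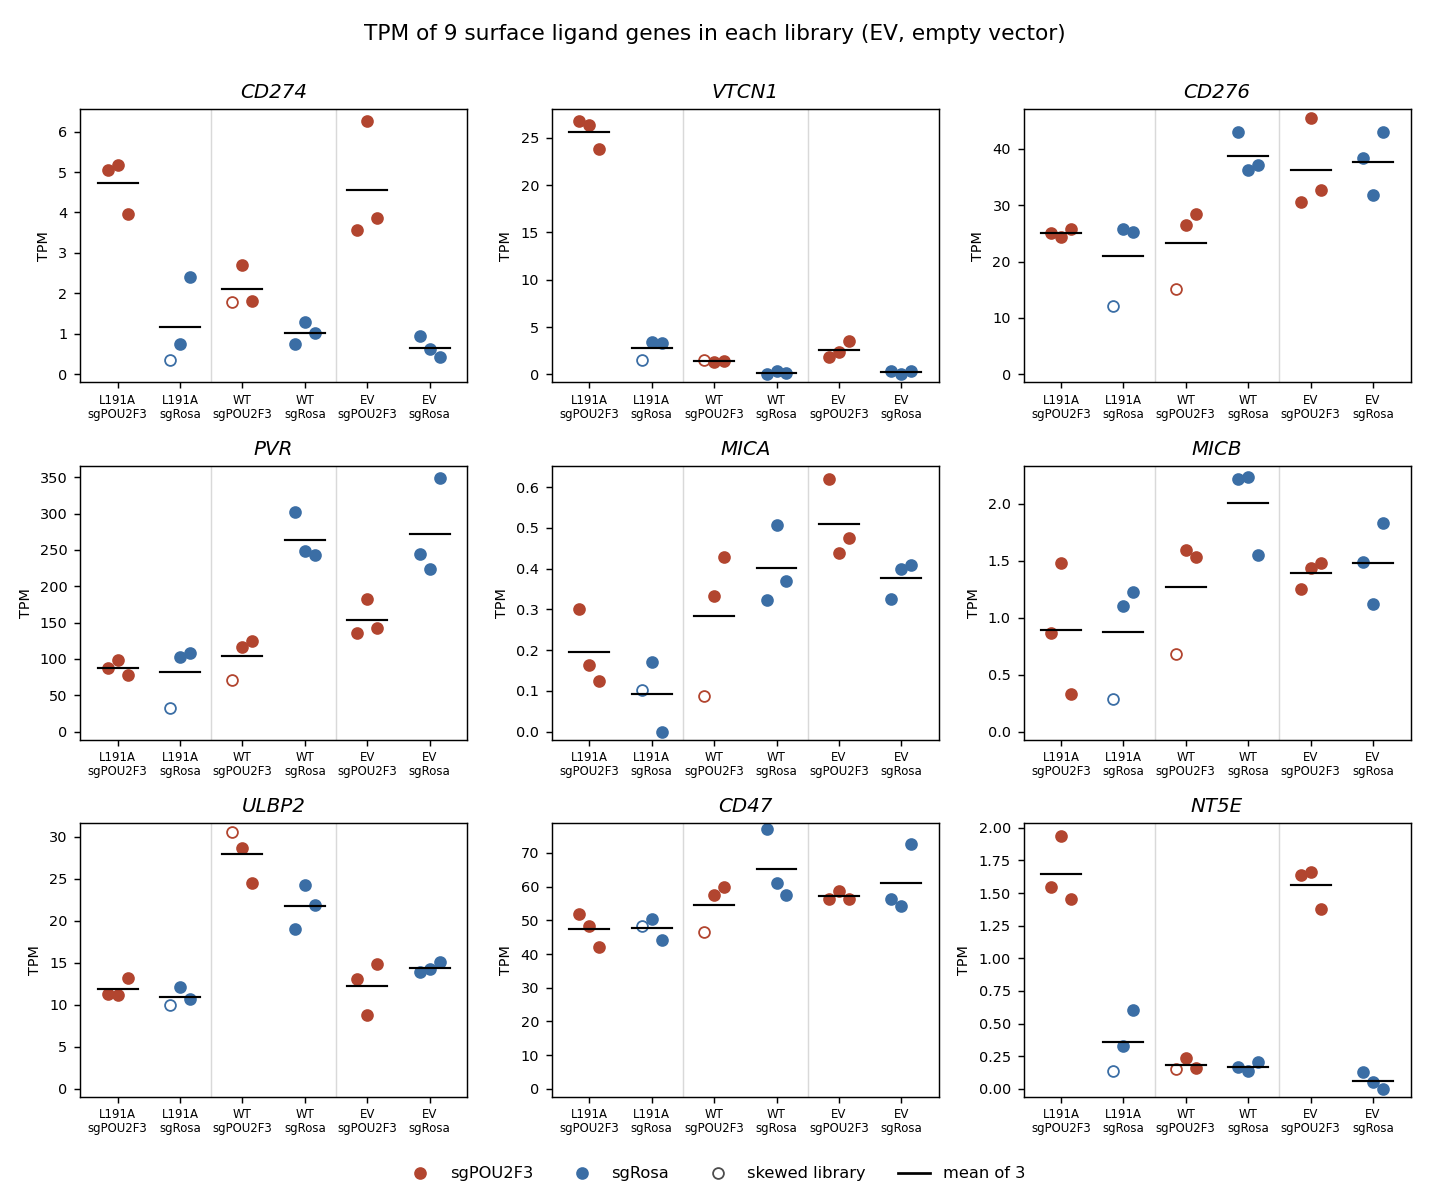
TPM (linear axis from 0) of each of the 9 genes in every library, with sgPOU2F3 in red, sgRosa in blue, the skewed pair of libraries as open points and group means as bars. CD274 was above 3.5 TPM in the libraries of L191A sgPOU2F3 and empty vector sgPOU2F3 and at most 2.71 TPM in all others, and VTCN1 was above 20 TPM in L191A sgPOU2F3 alone.

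CD274, VTCN1 and NT5E were higher under sgPOU2F3 than under sgRosa in both L191A and empty-vector cells. In WT cells VTCN1 was higher too, CD274 did not pass the test and NT5E stayed near its sgRosa level. PVR was lower under sgPOU2F3 in WT cells. In empty-vector cells PVR was also lower, without overlap of the guides, a difference called in the 16 libraries and not in the 18. MICB, ULBP2 and CD47 passed the test for sgPOU2F3 in no line, nor did MICA in a fit without a filter on low values. Differences are of log2(TPM + 1), on which changes at low TPM appear smaller than their ratio, and a gene was called at a Benjamini-Hochberg adjusted p of 0.05 in a limma fit of 13068 genes.

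Of the 7 genes tested, 2 were called for sgPOU2F3 in L191A cells (CD274 and VTCN1, both higher), where 5.99% of all genes tested were called, and 2 without the skewed pair, where 10.7% were. In WT cells 2 were called (VTCN1 higher, PVR lower), against 6.8% of all genes, and 3 without the skewed pair (CD276 also lower), against 36.1%. In empty-vector cells 2 were called (CD274 and VTCN1, both higher), against 17.4% of all genes, and 3 without the skewed pair (PVR also lower), against 51.7%. The median difference of all genes tested was not at 0: it was 0.33 in L191A, -0.42 in WT and -0.13 in empty-vector cells, and 0.01, -0.26 and -0.13 without the skewed pair.

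CD274 had 5.05, 5.17 and 3.96 TPM in L191A sgPOU2F3, against 0.36, 0.75 and 2.41 TPM in L191A sgRosa. In WT cells it had 1.79, 2.71 and 1.80 TPM under sgPOU2F3 and 0.74, 1.29 and 1.02 TPM under sgRosa. In empty-vector cells it had 3.56, 6.27 and 3.85 TPM under sgPOU2F3 and 0.94, 0.63 and 0.42 TPM under sgRosa. In each line all 3 sgPOU2F3 libraries lay above all 3 sgRosa libraries. The difference was 1.51 (SE 0.28, limma adjusted p = 0.00272) in L191A cells, 0.62 (SE 0.28, limma adjusted p = 0.120) in WT cells and 1.72 (SE 0.28, limma adjusted p = 0.000445) in empty-vector cells. Ratios of mean TPM were 4.04 in L191A, 2.06 in WT and 6.89 in empty-vector cells. Without the skewed pair the WT difference was 0.69 (limma adjusted p = 0.0520), and with the columns rescaled to a common median ratio it was 0.85 (limma adjusted p = 0.0309).

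VTCN1 ranged from 0 to 26.7 TPM. It had 26.7, 26.3 and 23.8 TPM in L191A sgPOU2F3 and 1.503, 3.41 and 3.29 TPM in L191A sgRosa. In WT cells it had 1.55, 1.36 and 1.40 TPM under sgPOU2F3 and 0, 0.32 and 0.11 TPM under sgRosa. In empty-vector cells it had 1.87, 2.35 and 3.47 TPM under sgPOU2F3 and 0.40, 0.08 and 0.30 TPM under sgRosa. The guides did not overlap in any line, and L191A sgPOU2F3 lay far above every other group. The sgPOU2F3 difference was 2.88 (SE 0.22, limma adjusted p = 3.39e-07) in L191A cells, 1.10 (SE 0.22, limma adjusted p = 0.0111) in WT cells and 1.48 (SE 0.22, limma adjusted p = 0.000159) in empty-vector cells. As ratios of mean TPM these were 9.37 in L191A, 10.2 in WT and 9.77 in empty-vector cells, with 1 WT sgRosa library listed at 0. Without the skewed pair the ratios were 7.645, 9.792 and 9.766. The WT call was lost when WT sgRosa replicate 1, WT sgRosa replicate 3 or WT sgPOU2F3 replicate 1 was left out alone (differences of 1.01 to 1.21 over the 6 libraries, limma adjusted p up to 0.0736). With the whole skewed pair left out it was kept, at 1.07 (SE 0.18, limma adjusted p = 0.00160). The differences were then 2.61 in L191A and 1.48 in empty-vector cells (limma adjusted p = 4.78e-08 and 2.44e-06).

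CD276 stayed between 12.2 and 45.4 TPM. It had 25.1, 24.4 and 25.8 TPM in L191A sgPOU2F3, against 12.2, 25.7 and 25.2 TPM in L191A sgRosa, where the low value came from the skewed library. In WT cells it had 15.2, 26.5 and 28.4 TPM under sgPOU2F3 and 43.0, 36.3 and 37.1 TPM under sgRosa, and in empty-vector cells 30.6, 45.4 and 32.7 TPM under sgPOU2F3 and 38.4, 31.9 and 42.9 TPM under sgRosa. The guides overlapped in L191A and empty-vector cells and were apart in WT cells. The WT difference of -0.75 (SE 0.27, limma adjusted p = 0.0764) became -0.48 (SE 0.15, limma adjusted p = 0.0259) without the skewed pair, where the median of all genes was -0.26.

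PVR, the most abundant of the 9, had 87.6, 98.0 and 77.4 TPM in L191A sgPOU2F3 and 32.4, 103 and 109 TPM in L191A sgRosa. In WT cells it had 71.2, 117 and 125 TPM under sgPOU2F3 and 302, 248 and 243 TPM under sgRosa. In empty-vector cells it had 136, 182 and 143 TPM under sgPOU2F3 and 244, 224 and 350 TPM under sgRosa. Both sgRosa groups without L191A stood above all other groups. The sgPOU2F3 difference was -1.36 (SE 0.35, limma adjusted p = 0.0387) in WT cells and -0.81 (SE 0.35, limma adjusted p = 0.138) in empty-vector cells. Without the skewed pair these were -1.11 (SE 0.17, limma adjusted p = 0.000606) and -0.81 (SE 0.15, limma adjusted p = 0.000395), with both called. The empty-vector libraries were the same in both fits, and the SE differed because all groups shared 1 estimate of the spread. With the columns rescaled to a common median ratio, the empty-vector difference was -0.67 and called (limma adjusted p = 0.00334). In L191A cells the difference was 0.28 (SE 0.35) with all libraries and -0.28 (SE 0.17) without the pair, called in neither fit (limma adjusted p = 0.573 and 0.404). With the skewed pair kept, the WT call was lost when any of its 6 libraries except WT sgPOU2F3 replicate 3 was left out (limma adjusted p up to 0.218), and with a pseudocount of 0.1 (limma adjusted p = 0.0631).

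Of the NKG2D ligands among the 9 genes, MICB and ULBP2 did not pass the test for sgPOU2F3 in any line. MICA ranged from 0 to 0.62 TPM over the 18 libraries, too low for its differences to be read. MICB had 0.87, 1.48 and 0.33 TPM in L191A sgPOU2F3, against 0.29, 1.10 and 1.23 TPM in L191A sgRosa. It had 0.69, 1.60 and 1.53 TPM in WT sgPOU2F3, against 2.22, 2.23 and 1.55 TPM in WT sgRosa, and 1.25, 1.44 and 1.48 TPM in empty vector sgPOU2F3, against 1.49, 1.12 and 1.83 TPM in empty vector sgRosa. The guides overlapped in all 3 lines. The differences were 0.01 in L191A, -0.42 in WT and -0.05 in empty-vector cells (SE 0.25 each, limma adjusted p = 0.982, 0.201 and 0.930).

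ULBP2 was higher in WT cells than in both other lines. It had 11.3, 11.2 and 13.3 TPM in L191A sgPOU2F3 and 9.99, 12.2 and 10.7 TPM in L191A sgRosa. In WT cells it had 30.5, 28.6 and 24.6 TPM under sgPOU2F3 and 19.0, 24.3 and 21.9 TPM under sgRosa, and in empty-vector cells 13.0, 8.80 and 14.9 TPM under sgPOU2F3 and 14.0, 14.2 and 15.1 TPM under sgRosa. All 6 WT libraries were above the 12 others, and the guides overlapped in L191A and empty-vector cells and not in WT cells. The sgPOU2F3 difference was 0.11 in L191A, 0.35 in WT and -0.25 in empty-vector cells (SE 0.19 each, limma adjusted p = 0.680, 0.167 and 0.414). Its level is uncertain, because 44.2% of the 31-base words of its GENCODE transcript occur in other genes and 41.7% in RAET1L, a neighbouring ligand of the same family with a mean of 0.61 TPM. The share was 15.0% for MICB, 13.4% for MICA and at most 6.04% for the other 6 genes.

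CD47 varied little, from 42.0 to 77.0 TPM. It had 52.0, 48.2 and 42.0 TPM in L191A sgPOU2F3, against 48.2, 50.3 and 44.2 TPM in L191A sgRosa. It had 46.4, 57.4 and 59.8 TPM in WT sgPOU2F3, against 77.0, 61.2 and 57.6 TPM in WT sgRosa, and 56.4, 58.6 and 56.5 TPM in empty vector sgPOU2F3, against 56.3, 54.1 and 72.5 TPM in empty vector sgRosa. The guides overlapped in each line, and the differences were -0.01 in L191A, -0.25 in WT and -0.08 in empty-vector cells (SE 0.15 each, limma adjusted p = 0.974, 0.216 and 0.785).

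NT5E was too low on average to be tested with the others, but it was not low everywhere. It had 1.55, 1.94 and 1.45 TPM in L191A sgPOU2F3, against 0.14, 0.33 and 0.60 TPM in L191A sgRosa. In WT cells it had 0.15, 0.24 and 0.16 TPM under sgPOU2F3 and 0.17, 0.14 and 0.21 TPM under sgRosa. In empty-vector cells it had 1.64, 1.66 and 1.38 TPM under sgPOU2F3 and 0.13, 0.06 and 0 TPM under sgRosa. All libraries of L191A sgPOU2F3 and empty vector sgPOU2F3 lay above the other 12. In a limma fit with no filter on low values (18472 genes), the sgPOU2F3 difference was 0.97 (SE 0.10, limma adjusted p = 2.22e-05) in L191A cells, 0.02 (SE 0.10, limma adjusted p = 0.948) in WT cells and 1.27 (SE 0.10, limma adjusted p = 5.92e-07) in empty-vector cells. That fit called 5.21% of genes for L191A, 8.07% for WT and 14.6% for empty vector. In the 16 libraries the differences were 0.85, 0.04 and 1.27 (limma adjusted p = 7.24e-05, 0.828 and 2.17e-07).

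**Figure D2:**
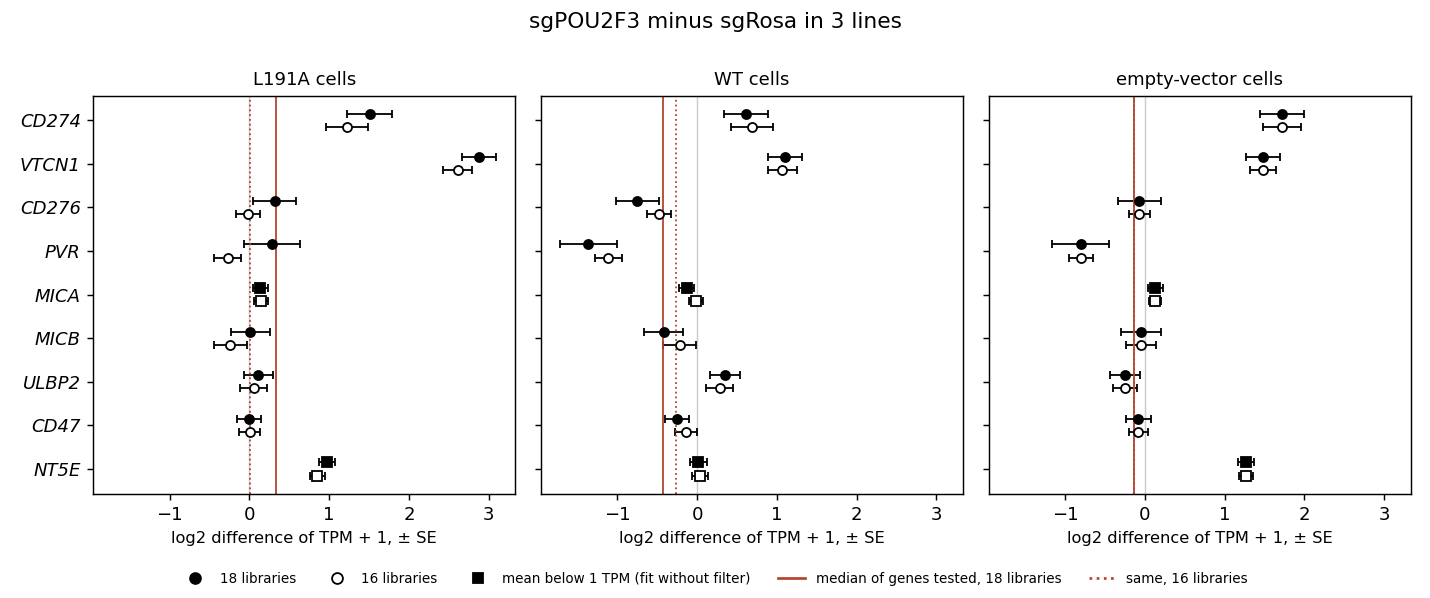
Difference sgPOU2F3 minus sgRosa on the log2(TPM + 1) scale, ± SE from limma, for each of the 9 genes in L191A, WT and empty-vector cells, in 18 libraries (filled) and 16 (open), with squares for MICA and NT5E, fitted without the filter, and red lines for the median of all genes tested. CD274, VTCN1 and NT5E stand to the right of the median in L191A and empty-vector cells, and NT5E is at 0.02 in WT cells.

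Whether the response to sgPOU2F3 itself differed between lines was tested as a difference of differences. For L191A minus WT, 2 of the 7 genes were called, VTCN1 and PVR, where 11.7% of all genes were called and 13.2% without the skewed pair, with the same 2 genes. For L191A minus empty vector 1 was called, VTCN1, in either fit, against 6.08% and 23.3% of all genes. For WT minus empty vector none was called by limma with all libraries, against 6.99%, 2 having an unadjusted p under 0.05 (CD274 and ULBP2), and CD274 alone in the 16, against 26.7%. The VTCN1 difference was 1.78 (SE 0.30, limma adjusted p = 0.00274) for L191A minus WT and 1.40 (SE 0.30, limma adjusted p = 0.0152) for L191A minus empty vector. With a pseudocount of 0.1 in place of 1 these were 0.36 and 0.31 and neither was called (limma adjusted p = 0.654 and 0.753), so on a scale closer to ratios the guide response of VTCN1 was not shown to differ between lines. The L191A minus empty vector call was also lost without empty vector sgPOU2F3 replicate 1 (limma adjusted p up to 0.0536 over the 12 libraries left out).

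For PVR the difference L191A minus WT was 1.65 (SE 0.50, limma adjusted p = 0.0461), and 0.84 (SE 0.24, limma adjusted p = 0.0309) without the skewed pair. It was lost in 8 of the 12 fits that left out 1 library, namely each WT sgRosa, each L191A sgPOU2F3, and WT sgPOU2F3 replicates 1 and 2 (limma adjusted p up to 0.130), and with a pseudocount of 0.1 or without the filter (limma adjusted p = 0.0607 and 0.0520). The median of all genes in this comparison was 0.79, and 0.28 without the pair. CD274 responded less in WT than in empty-vector cells by 1.11 (SE 0.39, limma adjusted p = 0.111) in 18 libraries, which was not called, and by 1.04 (SE 0.35, limma adjusted p = 0.0401) in 16. For NT5E the difference WT minus empty vector was -1.25 (SE 0.15, limma adjusted p = 7.50e-05) and L191A minus WT was 0.96 (SE 0.15, limma adjusted p = 0.00153) in the fit without filter, which called 6.26% and 9.97% of genes. Its L191A minus empty vector difference was -0.30 (SE 0.15, limma adjusted p = 0.226), and -0.42 in the 16 libraries, where it was called (limma adjusted p = 0.0467). NT5E was not fitted with a pseudocount of 0.1.

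With the endogenous gene targeted in all lines, L191A, WT and empty-vector cells were set side by side. Their POU2F3 RNA, cDNA included, was not equal, at 646.1 TPM in L191A, 1154 in WT and 281.5 in empty-vector cells. In L191A minus WT the substitution and the level of POU2F3 RNA cannot be told apart. CD274 was higher and ULBP2 lower in L191A than in WT cells, and VTCN1 was higher in L191A than in either other line. For L191A minus WT 3 of 7 genes were called, against 13.5% of all genes, and 4 in the 16 libraries (PVR also lower), against 37.4%. For L191A minus empty vector 1 was called, VTCN1, against 3.79%, and 3 in the 16 (CD276 and PVR lower), against 22.9%. For WT minus empty vector 2 were called, against 20.6%, and 3 in the 16 (VTCN1 also lower), against 43.6%.

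VTCN1 averaged 25.6 ± 1.56 TPM in L191A sgPOU2F3, 1.44 ± 0.10 in WT sgPOU2F3 and 2.57 ± 0.82 in empty vector sgPOU2F3 (SD, n = 3 each). L191A minus WT was 3.45 (SE 0.22, limma adjusted p = 5.84e-08), a ratio of 17.9 of the means, and L191A minus empty vector was 2.92 (SE 0.22, limma adjusted p = 2.92e-07). CD274 averaged 4.73 ± 0.67 TPM in L191A, 2.10 ± 0.53 in WT and 4.56 ± 1.49 in empty-vector cells under sgPOU2F3. The L191A and empty-vector libraries overlapped, with a difference of 0.07 (SE 0.28, limma adjusted p = 0.9804), and both groups lay above WT. The CD274 differences were 0.89 for L191A minus WT (limma adjusted p = 0.0450) and -0.82 for WT minus empty vector (SE 0.28 each, limma adjusted p = 0.0473), and each call was lost when any 1 of its 6 libraries was left out (limma adjusted p of 0.0505 to 0.207 over both). A pseudocount of 0.1 ended both (limma adjusted p = 0.142 and 0.136), as did leaving out the filter. The values without those libraries were 0.82 to 1.03 and -0.96 to -0.62.

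NT5E followed the same order, at 1.65 ± 0.26 TPM in L191A, 0.18 ± 0.05 in WT and 1.56 ± 0.16 in empty-vector cells under sgPOU2F3. In the fit without filter L191A minus WT was 1.16 (SE 0.10, limma adjusted p = 2.80e-06) and WT minus empty vector was -1.11 (SE 0.10, limma adjusted p = 3.34e-06), where 11% and 16.3% of genes were called. L191A and empty-vector cells differed by 0.05 (SE 0.10, limma adjusted p = 0.957). ULBP2 ran the other way, at 11.9 ± 1.17 TPM in L191A, 27.9 ± 3.05 in WT and 12.2 ± 3.12 in empty-vector cells. Its differences were -1.16 for L191A minus WT (limma adjusted p = 0.000480) and 1.15 for WT minus empty vector (SE 0.19 each, limma adjusted p = 0.000396).

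**Figure D3:**
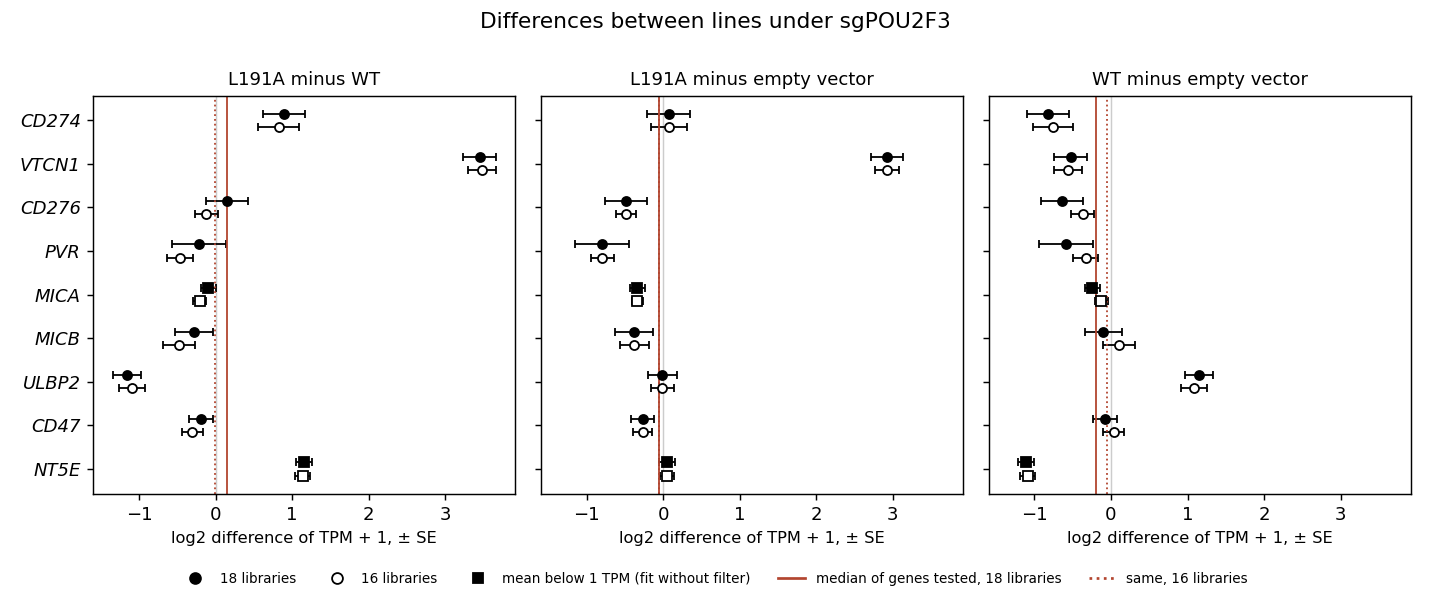
Differences between lines under sgPOU2F3 on the log2(TPM + 1) scale, ± SE from limma, drawn as in the plot of guide effects (18 libraries filled, 16 open, squares for the fit without filter, red lines for the median of all genes tested). VTCN1 is at 3.45 for L191A minus WT and 2.92 for L191A minus empty vector, and CD274 and NT5E are near 0 between L191A and empty vector.

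Under the control guide, with the endogenous gene intact, VTCN1 was already higher in L191A cells than in the other lines. It averaged 2.74 ± 1.07 TPM in L191A sgRosa, 0.14 ± 0.16 in WT sgRosa and 0.26 ± 0.16 in empty vector sgRosa (SD, n = 3 each), and the L191A libraries lay above all libraries of the other lines, which overlapped. L191A minus WT was 1.68 (SE 0.22, limma adjusted p = 5.27e-05), and L191A minus empty vector was 1.53 (SE 0.22, limma adjusted p = 0.000207). PVR was lower in L191A sgRosa, with a difference of -1.86 for L191A minus WT (SE 0.35, limma adjusted p = 0.000931) and -1.89 for L191A minus empty vector (SE 0.35, limma adjusted p = 0.00184). Without the skewed pair these were -1.31 and -1.33 (SE 0.17 each, limma adjusted p = 1.39e-05 and 2.60e-05), where the medians of all genes were -0.31 and -0.20.

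For L191A minus WT under sgRosa, 6 of 7 genes were called, against 55.8% of all genes, and 5 in the 16 libraries, against 58.2%. Besides VTCN1, which was higher, these were CD276, PVR, MICB, ULBP2 and CD47, all lower, with MICB not called in the 16. The median of all genes was -0.67 with the pair and -0.31 without it, and with columns rescaled to a common median ratio the call was kept by 2 genes. CD276 was then at -0.20, MICB at -0.37 and ULBP2 at -0.22, none called, and CD47 changed sign, with -0.44 as deposited (limma adjusted p = 0.0269) and 0.30 after rescaling (limma adjusted p = 0.310). Rescaling was run with the skewed pair kept, and it divided L191A sgRosa replicate 1 by 0.411 and replicates 2 and 3 by 0.993. As deposited in the 16 libraries, CD47 was at -0.45 and ULBP2 at -0.87, both called (limma adjusted p = 0.0109 and 0.000550). For L191A minus empty vector 3 were called in either fit (VTCN1 higher, CD276 and PVR lower), against 36% and 39.2% of all genes. Rescaling ended the CD276 call there (-0.88 as deposited and -0.26 rescaled). It was also lost without empty vector sgRosa replicate 1 or 3 or L191A sgRosa replicate 1 (limma adjusted p up to 0.106).

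NT5E was below 1 TPM in all libraries under sgRosa, and averaged 0.36 ± 0.23 TPM in L191A, 0.17 ± 0.03 in WT and 0.06 ± 0.07 in empty-vector cells (SD, n = 3 each). The L191A libraries lay above those of empty vector and overlapped those of WT. In the fit without filter L191A minus empty vector was 0.34 (SE 0.10, limma adjusted p = 0.0288), where 25.8% of genes were called. L191A minus WT was 0.20 (SE 0.10, limma adjusted p = 0.122), where 45.6% were, and it was called in the 16 libraries (0.32, limma adjusted p = 0.0169).

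The WT cDNA beside the intact gene was compared with empty vector. For WT minus empty vector under sgRosa no gene of the 7 was called with all libraries by limma, against 7.2% of all genes, 1 (ULBP2) had an unadjusted p under 0.05, and ULBP2 alone in the 16, against 34.3%. ULBP2 averaged 21.7 ± 2.66 TPM in WT sgRosa and 14.4 ± 0.58 in empty vector sgRosa (SD, n = 3 each), without overlap. The difference was 0.55 (SE 0.19, limma adjusted p = 0.0929), and 0.55 (SE 0.15, limma adjusted p = 0.0108) in the 16. The other 6 differences lay between -0.15 and 0.28.

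The skewed L191A sgRosa library did not move the 9 genes alike. On the log2(TPM + 1) scale it differed from the other libraries of its group by -1.68 for PVR, -1.01 for CD276, -0.84 for CD274 and -0.80 for VTCN1, against a median of -0.94 over all genes tested, while ULBP2 was at -0.17 and CD47 at 0.03. In the skewed WT sgPOU2F3 library CD276 was at -0.81 and PVR at -0.76 against a median of -0.44, and ULBP2 at 0.20 and VTCN1 at 0.10.

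Other genes of the same pathways were counted from 11 lists, 89 genes in all besides the 9. Of these 87 were measured and 61 tested. In L191A cells 14 rose under sgPOU2F3 and none fell by limma, where 5.99% of all genes were called, and 17 rose and 3 fell in the 16 libraries, against 10.7%. The median difference was 0.55 against 0.33 over all genes, and 0.16 against 0.01 in the 16. In WT cells none rose and 2 fell, CD70 and ADORA2B, against 6.8% of all genes called, with a median of -0.37 against -0.42. In the 16 libraries 5 rose in WT cells, THBS1, CD24, DPP4, FOSL1 and YAP1, and 11 fell, against 36.1%, with a median of -0.22 against -0.26. In empty-vector cells 14 rose and 5 fell, against 17.4%, with a median of 0.18 against -0.13, and 26 rose and 13 fell in the 16, against 51.7%. Genes named in these counts outside the smallest-p rule were chosen after their values were seen.

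Among nectins, the family of PVR, 3 of 5 genes were tested and 2 rose in L191A and in empty-vector cells (2 in L191A and 3 in empty-vector cells in the 16 libraries). None was called in WT cells in either fit. Of all genes 5.99% were called in L191A, 6.8% in WT and 17.4% in empty-vector cells, and 10.7%, 36.1% and 51.7% in the 16. NECTIN2, the other ligand of DNAM-1, averaged 11.7 ± 0.21 TPM in L191A sgPOU2F3 and 2.41 ± 0.45 in L191A sgRosa, 3.70 ± 1.41 in WT sgPOU2F3 and 3.95 ± 0.78 in WT sgRosa, and 16.2 ± 2.35 in empty vector sgPOU2F3 and 0.97 ± 0.22 in empty vector sgRosa (SD, n = 3 each). Its differences were 1.91 in L191A (limma adjusted p = 2.57e-05), -0.11 in WT (limma adjusted p = 0.704) and 3.12 in empty-vector cells (limma adjusted p = 4.77e-08). NECTIN3, a ligand of TIGIT, rose by 1.59 in L191A and 1.16 in empty-vector cells (limma adjusted p = 0.0119 and 0.0359), and by 1.05 in L191A cells in the 16 libraries (limma adjusted p = 0.000238).

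Of 10 other NK receptor ligands 6 were tested and 2 rose in both L191A and empty-vector cells, ICAM1 and HLA-E. In the 16 libraries NCR3LG1 also fell in WT and empty-vector cells, and BAG6 in WT cells. Of all genes 5.99% were called in L191A, 6.8% in WT and 17.4% in empty-vector cells, and 10.7%, 36.1% and 51.7% in the 16. ICAM1, the adhesion partner of the integrin LFA-1, averaged 3.48 ± 0.37 TPM in L191A sgPOU2F3 and 0.70 ± 0.43 in L191A sgRosa, 0.63 ± 0.32 in WT sgPOU2F3 and 0.43 ± 0.05 in WT sgRosa, and 14.4 ± 1.90 in empty vector sgPOU2F3 and 0.22 ± 0.03 in empty vector sgRosa. HLA-E, the ligand of the inhibitory receptor NKG2A, differed by 1.11 in L191A, 0.03 in WT and 1.17 in empty-vector cells (limma adjusted p = 0.00373, 0.913 and 0.00121). Of 5 further NKG2D ligands 3 were tested, to be read against the same shares of all genes. ULBP1 alone was called with all libraries, with a difference of -1.41 in empty-vector cells (limma adjusted p = 0.00526), with 5.45 ± 1.67 TPM under sgPOU2F3 and 15.9 ± 2.80 under sgRosa. Its L191A difference was -0.41 with all libraries (limma adjusted p = 0.375) and -0.83 in the 16, where it was called (limma adjusted p = 0.0227) and ULBP3 fell in WT cells.

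In the adenosine pathway of NT5E, 8 of 13 genes were tested, of which 2 rose in L191A cells, none in WT, where ADORA2B fell, and 3 in empty-vector cells. In the 16 libraries 2 rose and 1 fell in L191A cells, 1 rose and 3 fell in WT cells, and 5 rose and 1 fell in empty-vector cells. The shares of all genes called were 5.99%, 6.8% and 17.4% with all libraries and 10.7%, 36.1% and 51.7% in the 16. DPP4, which anchors adenosine deaminase at the cell surface, averaged 7.67 ± 0.89 TPM in L191A sgPOU2F3 and 0.39 ± 0.28 in L191A sgRosa, 1.07 ± 0.16 in WT sgPOU2F3 and 0.56 ± 0.16 in WT sgRosa, and 2.54 ± 0.36 in empty vector sgPOU2F3 and 0.24 ± 0.15 in empty vector sgRosa. Its WT difference was 0.41 with all libraries (limma adjusted p = 0.0937) and 0.45 in the 16, where it was called (limma adjusted p = 0.0416). The adenosine receptor genes ADORA1 and ADORA2A differed by 0.66 and 0.90 in empty-vector cells (limma adjusted p = 0.0114 and 0.00740) and by 1.48 and 0.60 in L191A cells (limma adjusted p = 1.89e-05 and 0.118). Among 5 phagocytosis genes 4 were tested, of which 3 rose in L191A cells (THBS1, CALR and CD24) and THBS1 in empty-vector cells. None was called in WT cells with all libraries. The shares of all genes called were those given above for the adenosine pathway. In the 16 libraries CALR also rose in empty-vector cells, and in WT cells CD24 and THBS1 rose and CALR fell. THBS1, a secreted ligand of CD47, averaged 104.6 ± 7.03 TPM in L191A sgPOU2F3 and 12.5 ± 9.28 in L191A sgRosa, 10.1 ± 2.83 in WT sgPOU2F3 and 2.96 ± 0.52 in WT sgRosa, and 154.2 ± 30.3 in empty vector sgPOU2F3 and 2.04 ± 0.45 in empty vector sgRosa. Its differences were 3.33, 1.47 and 5.67 (limma adjusted p = 0.000190, 0.0599 and 2.45e-07) in L191A, WT and empty-vector cells, and the WT difference was called in the 16 libraries, at 1.69 (limma adjusted p = 1.74e-05).

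Of 16 regulators known for CD274 or the NKG2D ligands, all were tested, 3 rose in L191A cells, none in WT and 5 in empty-vector cells. The shares of all genes called there were 5.99%, 6.8% and 17.4%. In the 16 libraries 5 rose and 1 fell in L191A cells, 2 rose (FOSL1 and YAP1) and 1 fell in WT cells, and 9 rose and 3 fell in empty-vector cells. The shares of all genes were then 10.7%, 36.1% and 51.7%. FOSL1, a subunit of AP-1, averaged 27.5 ± 2.71 TPM in L191A sgPOU2F3 and 5.09 ± 2.92 in L191A sgRosa, 3.34 ± 0.63 in WT sgPOU2F3 and 1.54 ± 0.61 in WT sgRosa, and 102 ± 6.79 in empty vector sgPOU2F3 and 0.72 ± 0.45 in empty vector sgRosa. YAP1, a coactivator of TEAD factors, differed by 2.49 in L191A, 0.23 in WT and 3.37 in empty-vector cells (limma adjusted p = 0.00296, 0.715 and 9.43e-05), and in the 16 libraries its WT difference was 0.63 and called (limma adjusted p = 0.0156). IRF1, the interferon-induced factor known to act on CD274, differed by 0.70, -0.06 and 1.70 (limma adjusted p = 0.0778, 0.839 and 4.56e-05), the L191A difference being called in the 16 libraries, at 0.40 (limma adjusted p = 0.0477).

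The remaining lists are read against the share of all genes called, 5.99% in L191A, 6.8% in WT and 17.4% in empty-vector cells. In the 16 libraries this was 10.7%, 36.1% and 51.7%. There CD59, PDIA6 and BTN2A1 rose in L191A cells, and CD70, CMTM4 and BTN3A1 fell in WT cells. In empty-vector cells LGALS9, TNFRSF10A, CD59, PDIA6 and BTN2A1 rose in the 16. TNFRSF14, CD70, CD46, CMTM6, ADAM10, BTN2A2 and BTN3A1 fell there. Values below are from all libraries. Of 11 other B7 and related checkpoint genes 4 were tested, and TNFRSF14 fell by 0.62 in empty-vector cells (limma adjusted p = 0.0125), while PDCD1LG2, the second ligand of PD-1, had a mean of 0.05 TPM. CMTM6, which stabilises the CD274 protein, fell by 0.89 in empty-vector cells (limma adjusted p = 0.00646). PDIA6, a disulphide isomerase involved in MICA shedding, rose by 0.64 in L191A and 0.45 in empty-vector cells (limma adjusted p = 0.00596 and 0.0273). The complement inhibitor CD46 and the butyrophilin BTN2A2 fell by 0.76 and 0.68 in empty-vector cells (limma adjusted p = 0.0126 and 0.0449). CD59, the other of the 2 complement inhibitors tested, rose by 0.85 in L191A cells (limma adjusted p = 0.00120).

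**Figure D4:**
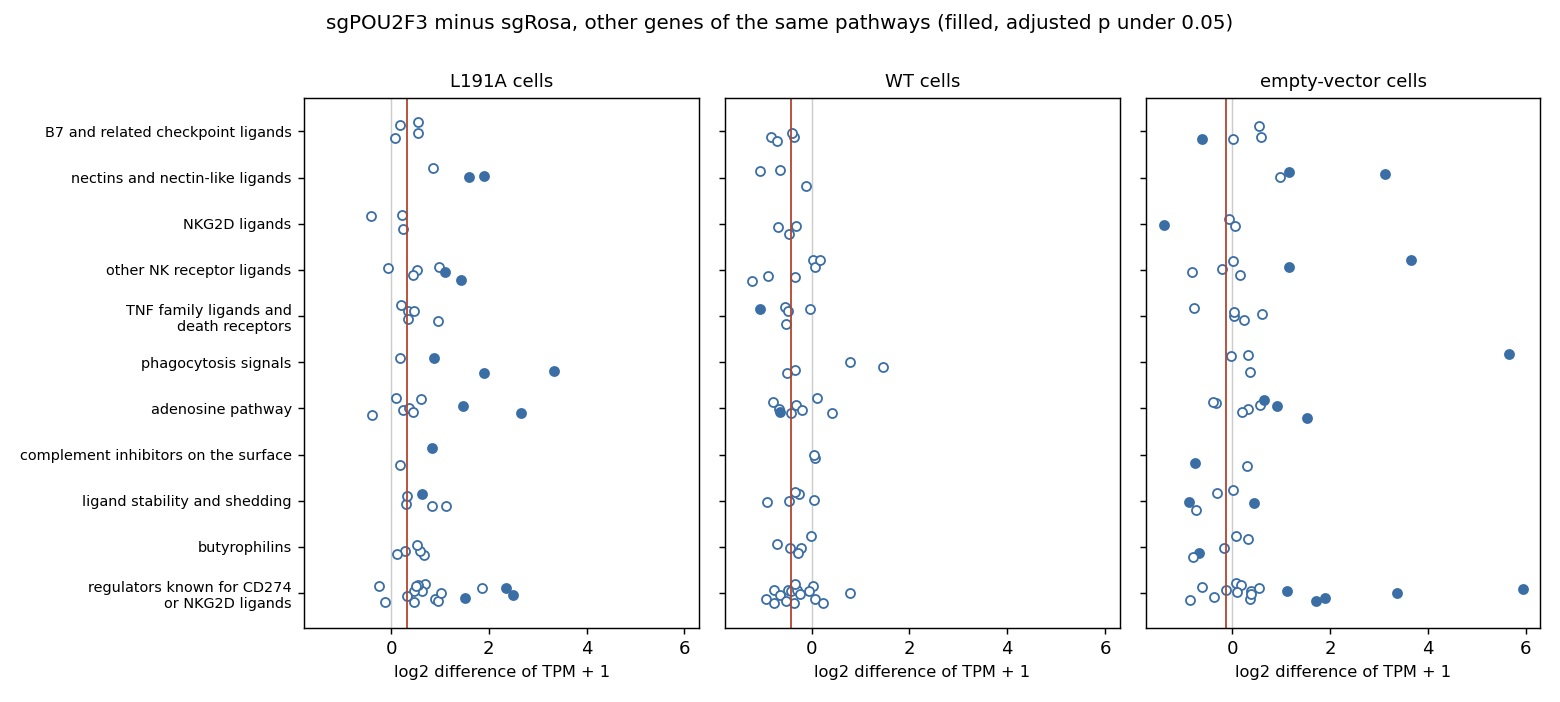
Difference sgPOU2F3 minus sgRosa (log2(TPM + 1), 18 libraries) of each tested gene of the 11 pathway lists in L191A, WT and empty-vector cells, filled where the limma adjusted p was under 0.05, with a red line at the median of all genes tested. Filled points number 14 in L191A, 2 in WT and 19 in empty-vector cells.

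Markers of cells that could carry these receptors were checked. Of 11 lymphocyte and NK cell markers, PTPRC and KLRD1 had means of 3.69 and 3.71 TPM, the other 9 were below 1 TPM, and CD3E and CD2 were at 0 in every library. Their summed level was 7.36 to 8.64 TPM in L191A sgPOU2F3 and 1.75 to 8.03 in L191A sgRosa, 4.53 to 10.4 in WT sgPOU2F3 and 11.2 to 14.3 in WT sgRosa, and 5.84 to 10.5 in empty vector sgPOU2F3 and 11.4 to 15.5 in empty vector sgRosa. Of 6 myeloid markers 3 and of 5 fibroblast markers 4 had a mean of at least 1 TPM, and no endothelial marker of 4 did. The myeloid sum was 3.46 to 4.22 TPM in L191A sgPOU2F3 and 4.74 to 5.96 in L191A sgRosa, 9.59 to 13.1 in WT sgPOU2F3 and 11.4 to 14.4 in WT sgRosa, and 6.66 to 8.77 in empty vector sgPOU2F3 and 5.31 to 5.92 in empty vector sgRosa. The fibroblast sum was 11.7 to 12.2 TPM in L191A sgPOU2F3 and 8.26 to 13.4 in L191A sgRosa, 6.34 to 9.30 in WT sgPOU2F3 and 15.3 to 20.3 in WT sgRosa, and 10.4 to 16.8 in empty vector sgPOU2F3 and 5.59 to 7.09 in empty vector sgRosa. Their part in the results was not tested.

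The genes whose pattern was most like each of the 7 tested genes were found over the 16 libraries by Pearson's r of log2(TPM + 1), as a description, since libraries of a group share their line and guide. For CD274 they were BCL6 (r = 0.943) and HES1 (r = 0.938). Over the 16 libraries BCL6 averaged 22.8 TPM in L191A sgPOU2F3 and 9.74 in L191A sgRosa, 11.4 in WT sgPOU2F3 and 6.30 in WT sgRosa, and 23.9 in empty vector sgPOU2F3 and 3.73 in empty vector sgRosa. For VTCN1 they were PLS3 (r = 0.984) and SGMS1 (r = 0.978), for PVR EFNB2 (r = 0.971) and TBX3 (r = 0.970), for CD276 TP53BP2 (r = 0.968) and FAM171A1 (r = 0.966), and for ULBP2 TMEM219 (r = 0.949) and SQOR (r = 0.915). The closest for CD47 were BCL2L13 (r = 0.918) and EEPD1 (r = 0.909), and for MICB FLOT2 (r = 0.863) and TUBB2B (r = 0.861).

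In GENCODE annotation of GRCh38 the 9 genes lay on 6 chromosomes. They were VTCN1 on chromosome 1 (117143587 to 117210960, minus strand), CD47 on 3 (108043094 to 108091862, minus), NT5E on 6 (85449584 to 85495791, plus), ULBP2 on 6 (149942000 to 149949235, plus), CD274 on 9 (5450503 to 5470566, plus), CD276 on 15 (73683966 to 73714518, plus) and PVR on 19 (44643798 to 44663583, plus). MICA and MICB lay in the major histocompatibility complex on chromosome 6 (31399784 to 31415315 and 31494881 to 31511124, plus).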

How the data were processed

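Poly(A) RNA of NCI-H211 cells was sequenced after TRIzol extraction and TruSeq library preparation, per the labels' protocols. The authors deposited TPM values. The submitters' processing notes name kallisto and hg38, with no version, transcript set or strand setting, so reads shared by related or overlapping genes could be assigned in ways not known. Each of 18 columns sums to 1000000 TPM, so depth was lost and a rise in abundant transcripts lowers all others. Of 19875 entries 129 named no gene (27 spreadsheet dates and 102 fragments, 1.61% to 2.38% of TPM) and were left out. limma 3.58.1 (R 4.3.3) fitted log2(TPM + 1), computed from the deposited TPM, with 1 coefficient per group and a variance trend, to the 13068 genes whose mean reached 1 TPM. All groups shared 1 estimate of the spread. Each of 12 contrasts had a two-sided test, adjusted by Benjamini-Hochberg, at 0.05. Fits without the skewed pair used the same genes, and MICA and NT5E were read from a fit of 18472 genes without filter. The fit was tested on simulated data. Alternatives were a pseudocount of 0.1, no filter, median-ratio scaling, a replicate block and each library left out. Use of the unfiltered fit in the 16 libraries was chosen after seeing the data. All 9 genes were named. From each pathway list up to 3 were named, those with the smallest p for sgPOU2F3 in empty-vector cells among those called there, and for each tested gene the 2 most like it among those whose mean reached 5 TPM. The 9 genes and all lists were chosen with earlier results of these data known. Shared 31-base words and positions came from GENCODE on GRCh38, the assembly of hg38, and promoters from RefSeq. Replicate numbers were not shown to pair libraries: in 1 of 15 pairs of groups did all same-number correlations exceed 0.1. With 3 libraries per group, these correlations cannot exclude pairing.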

Additional observations from a re-analysis of the deposited data

Results flagged for a closer look

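In 5 cases the response to sgPOU2F3 differed between lines by a limma test of the difference itself. VTCN1 responded more in L191A than in empty-vector cells by 1.396 on the log2(TPM + 1) scale and more than in WT cells by 1.775, both lost with a pseudocount of 0.1. PVR differed by 1.649 between L191A and WT cells, where it fell under sgPOU2F3 in WT cells. The PVR call was lost in 8 of 12 fits that left out 1 library, with a pseudocount of 0.1 and without the filter, and the difference was 0.838 in the 16 libraries. In the fit without a filter on low values, the NT5E response differed by -1.251 for WT minus empty vector and by 0.955 for L191A minus WT. NT5E was not fitted with a pseudocount of 0.1. The median difference of all genes tested was 0.48 for L191A minus empty vector, 0.79 for L191A minus WT and -0.26 for WT minus empty vector. Groups of 3 libraries are too small for a test of single outlying libraries.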

How the results depend on the processing

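Among called differences of single genes, the sign turned in 1 case over the alternatives run: CD47 in L191A minus WT under sgRosa was 0.301 with median-ratio scaling, and not called. In the 16 libraries as deposited, that difference was -0.449 and called (limma adjusted p = 0.0109). Signs of differences that were not called were not assessed. Each of 84 values of the 7 tested genes was called or not called. That state was the same for 78 with a pseudocount of 0.1, 81 without a filter and 74 with scaling. These numbers include values called in neither fit. Calls lost were 6 with the pseudocount, 3 without a filter and 4 with scaling, besides that of CD47, whose sign turned. Scaling also gave 5 new calls. In the 16 libraries 8 gained and 1 lost a call.

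Counts of called genes that moved by more than 1.5 times follow, members first. With a pseudocount of 0.1 the members called were 1 for sgPOU2F3 in WT cells, 1 for WT minus empty vector under sgPOU2F3, and 0 for the response of L191A minus empty vector and of L191A minus WT. All genes called were then 224 for sgPOU2F3 in WT cells and 701 for the response of L191A minus WT. Without a filter all 9 genes were fitted and not 7. Then 5 were called for L191A minus empty vector under sgRosa, MICA and NT5E being the ones added, against 25.8% of all genes. MICA remained too low for its differences to be read. For the response of WT minus empty vector 1 was called, NT5E, against 6.26%. All genes called without a filter were 1491 for sgPOU2F3 in WT cells and 788 for L191A minus empty vector under sgPOU2F3. With median-ratio scaling 3 members were called for L191A minus empty vector under sgPOU2F3 and 2 for L191A minus WT under sgRosa. All genes called with scaling were 1261 for sgPOU2F3 in L191A, 1650 in WT and 3450 in empty-vector cells, 2891 for L191A minus WT and 1068 for L191A minus empty vector under sgPOU2F3, 1716 for WT minus empty vector under sgRosa, and 1994 and 1591 for the response of WT and of L191A minus empty vector. In the 16 libraries 3 members were called for L191A minus empty vector under sgPOU2F3, 1 for WT minus empty vector under sgRosa and 1 for the response of WT minus empty vector. All genes called in the 16 were 1396 for sgPOU2F3 in L191A, 4717 in WT and 6762 in empty-vector cells, 4886 for L191A minus WT, 2991 for L191A minus empty vector and 5700 for WT minus empty vector under sgPOU2F3, 4487 for WT minus empty vector under sgRosa, and 3495 and 3039 for the response of WT and of L191A minus empty vector. In the 16, no library was lost from sgPOU2F3 in empty-vector cells, L191A minus empty vector under sgPOU2F3 or WT minus empty vector under sgRosa. Their differences were unchanged, and their counts moved through the estimate of the spread that all groups share. For the other counts the causes were not tested.

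The replicate block changed 1 call of a member: CD276 in the response of L191A minus WT (1.07, limma adjusted p = 0.0445 with the replicate block). Genes called with it were 1440 for sgPOU2F3 in WT cells and 4029 for the response of L191A minus WT. The numbers were not shown to pair the libraries, with same-number correlations of -0.577 to 0.594.

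With 1 library left out in turn, members called were 0 to 3 for sgPOU2F3 in WT cells, 1 throughout for WT minus empty vector under sgPOU2F3, 0 to 1 for the response of L191A minus empty vector and 1 to 4 for that of L191A minus WT. All genes called were 478 to 1765 for sgPOU2F3 in L191A, 110 to 2859 in WT and 1283 to 1810 in empty-vector cells. They were 995 to 1644 for L191A minus WT and 1728 to 2696 for WT minus empty vector under sgPOU2F3. Under sgRosa they were 4450 to 8915 for L191A minus WT, 1421 to 7494 for L191A minus empty vector and 417 to 751 for WT minus empty vector. For the responses they were 418 to 7260 (L191A minus WT), 292 to 2517 (L191A minus empty vector) and 537 to 1226 (WT minus empty vector). Of 648 values of single genes, 37 lost and 5 gained a call. The 648 include values of NT5E, which had no call to lose or gain in these fits. Unknown depth leaves the error of MICA, MICB, NT5E and low CD274 and VTCN1 values unmeasured.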
